A study of Homo sapiens with 4 samples.

Results

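The genes described here are 52 genes of ribosome biogenesis and RNA polymerase I (Pol I), taken by name from the 25702 genes counted in whole transcriptome sequencing (WTS) of K562 cells. All 52 names were matched through NCBI gene numbers, and all 52 passed the filter on low counts, which kept 15394 genes. K562, an established line from human chronic myeloid leukemia, was transiently transfected with the plasmid LeGO-iG2-RUNX1::ERG, which also expresses GFP, and control cells received LeGO-iG2 with no insert (the empty vector, EV). RUNX1::ERG joins a pair of hematopoietic transcription factors and keeps the Runt and Ets DNA-binding domains. Each group had 2 replicates, which the study calls biological, with no further treatment, and the study's general protocol assayed cells at 72 h after transfection. How the replicate cultures were kept apart is not given in the sources used here. A cell sort before RNA extraction is not given in the sources used here, so cells without plasmid may be included in both groups.

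Ribosomes are built in the nucleolus. Pol I transcribes one long precursor from the ribosomal DNA, which carries most of the ribosomal RNA (rRNA). Small nucleolar ribonucleoproteins (snoRNPs) then modify the precursor, the small subunit processome and the large subunit assembly factors cut and fold it, and ribosomal proteins are added on the way. Growing cells spend much of their transcription on this pathway, and MYC is known to drive many of its genes. K562 cells divide fast and are an erythroid model. The comparison asks which transcripts differ in these cells when the fusion is expressed.

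The library totals ran from 59695387 to 82352144 counts, and the lowest count of any of the 52 genes in any library was 712. Between 66.7% and 68.9% of the counts from 1 to 10 were even, as when both mates of a pair are counted, in which case independent fragments are fewer than the counts. ERG had 4 counts in each empty vector library against 80443 and 27218 counts in RUNX1::ERG replicates 1 and 2, as the labels state, and RUNX1 rose by a log2 fold change of 3.22. MYC was at 301 and 289 normalized CPM (counts scaled to the library size, after TMM adjustment) with the empty vector and at 134 and 140.1 with RUNX1::ERG, a log2 fold change of -1.11 (standard error, SE, 0.15; edgeR adjusted p = 0.002). All 10 erythroid markers were present in all 4 libraries, GATA1 and HBG2 from 256 and 2503 normalized CPM upwards, and CDKN2A, deleted in K562, had no counts. Of these markers TAL1 (log2 fold change 0.68, edgeR adjusted p = 0.025) and EPOR (0.87, edgeR adjusted p = 0.030) passed as higher with RUNX1::ERG. HBZ was at -0.59 (edgeR adjusted p = 0.05003) and TFRC at -0.57 (edgeR adjusted p = 0.24), and neither passed. Of the markers of lymphocytes and fibroblasts reported here, MS4A1 and LUM had no counts, and DCN had at most 8. CD3E and COL1A2 were under 3 normalized CPM, and CD3D was between 20.5 and 34.7. COL1A1 went from 4.13 and 3.62 normalized CPM with the empty vector to 22.0 and 19.6 with RUNX1::ERG. It passed as higher, with a log2 fold change of 2.42 (edgeR adjusted p = 0.0002). The part of these markers in the results was not tested.

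Transcripts of the 52 genes were lower with RUNX1::ERG than with the empty vector almost throughout, by small amounts. The fitted log2 fold change was below 0 for 51 of the 52 genes, and for 50.2% of all 15394 genes tested. The median log2 fold change was -0.34, a level 21.1% lower, beside a median of -0.0017 over all genes tested. The range ran from -0.62 for NOB1 to 0.18 for UBTF. By the quasi-likelihood test of edgeR with Benjamini-Hochberg adjustment over all genes, 1 of the 52 passed an adjusted p of 0.05, NOB1, which was lower, while 1.15% of all genes passed in that direction and 4.79% in either. At an unadjusted p under 0.05, 14 of the 52 were lower and 0 higher, and 7.26% of all genes were lower. The groups did not overlap for 30 of the 52 genes, each RUNX1::ERG library being lower than either empty vector library. Over all genes this share was 22.1%. Groups lay apart in the other direction for 0 of the 52 genes, against 3858 of the 15394 genes tested. The 52 genes vary together between libraries, so these counts do not add up like independent observations. In RNA from a bulk culture, fewer cells with a transcript and less of it per cell cannot be told apart.

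The 4 libraries were not ordered by group alone. For each gene the log2(CPM + 0.5) of each library was set against the gene's mean over the 4 libraries, and the median of this difference over the 52 genes was taken. It was 0.36 in empty vector replicate 2, -0.055 in empty vector replicate 1, -0.24 in RUNX1::ERG replicate 1 and -0.067 in RUNX1::ERG replicate 2. Empty vector replicate 2 thus stood above the other 3 libraries, and empty vector replicate 1 was near RUNX1::ERG replicate 2. Empty vector replicate 2 was the highest library for 49 of the 52 genes, against 24.8% of all genes, and RUNX1::ERG replicate 1 was the lowest for 36, against 24.8%. As a share of all counts, the 52 genes took 0.982% and 1.22% with the empty vector and 0.829% and 0.924% with RUNX1::ERG. Replicate 2 was above replicate 1 for 49 genes in the empty vector group and for 42 genes in the RUNX1::ERG group.

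**Figure D1:**
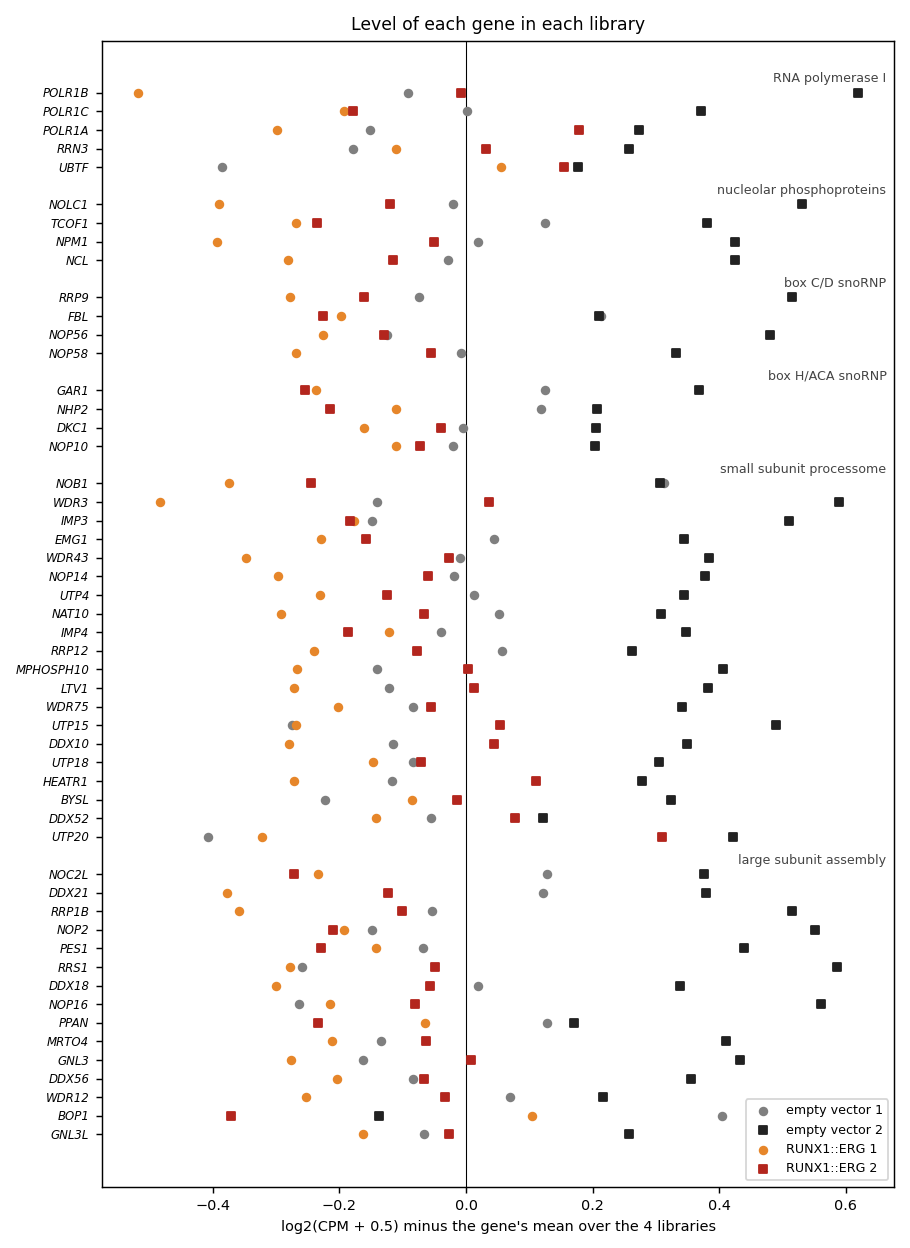
Each row is 1 of the 52 genes, and the x axis gives log2(CPM + 0.5) in each library minus the gene's mean over the 4 libraries. Points are single libraries (grey and black, empty vector replicates 1 and 2; orange and red, RUNX1::ERG replicates 1 and 2), and the black squares of empty vector replicate 2 lie furthest right for 49 of the 52 genes.

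Leaving out single libraries showed how far the difference rested on each. Without empty vector replicate 2 the median log2 fold change of the 52 genes was -0.12, 39 were lower and 0 were called, while 48.9% of all genes were lower and 3.75% were called lower in that fit. Without empty vector replicate 1 the median was -0.53 and 16 were called lower, against 1.91% of all genes. These fits leave a group with 1 library, which is assumed to vary like the other group. Without RUNX1::ERG replicate 1 the median was -0.25, 47 were lower and 0 were called, against 51.5% of all genes lower and 0.368% called lower. Without RUNX1::ERG replicate 2 it was -0.44 with 2 called lower, POLR1B and WDR3, against 1.18% of all genes. All 4 of these values were below 0 for 38 of the 52 genes. Without the filter on low counts 7 of the 52 were called lower, against 2.65% of all genes.

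Promoters were examined because nearly all of the differences had the same sign. RefSeq promoter windows (GRCh38.p14, from 250 bases before to 50 bases after a transcription start) were matched for 42 of the 52 genes. The E-box CACGTG, the sequence that MYC with its partner MAX prefers and which reads the same on both strands, was present in 18 of the 42 (42.9%). It was present in 12.3% of the 11379 tested genes with a promoter window and in 7.26% of all 35116 windows. The ETS core CCGGAAG, searched on both strands, was also present in 18 of 42 genes, against 21.5% of tested genes and 10.3% of all windows. The RUNX core TGTGGT, on both strands, was present in 4 of 42 genes (9.52%), against 13.1% of tested genes and 13.1% of all windows. The E-box and the RUNX core can share end bases, the ETS core shares none with either, and 8 genes held both an E-box and an ETS core. Median log2 fold changes were close, at -0.36 in the 18 genes with an E-box and -0.32 in the 24 without. For the ETS core they were -0.38 and -0.31. At an unadjusted p under 0.05 in edgeR's test, 4 of 18 and 7 of 24 were lower for the E-box. For the ETS core it was 8 of 18 and 3 of 24, against 7.26% of all genes. These differences were not tested. A match of letters is a description and not a bound site.

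The 250 bases before the start (GRCh38.p14) are shown for the single called gene, NOB1 (chr16:69754927-69755176, minus strand), and for 3 genes with an E-box close to the start, NOP10 of the box H/ACA snoRNP (chr15:34343137-34343386, minus strand), and UTP20 (chr12:101279855-101280104, plus strand) and NAT10 (chr11:34105379-34105628, plus strand) of the small subunit processome. Capitals mark CACGTG and CCGGAAG on either strand, the latter seen as CTTCCGG.
NOB1: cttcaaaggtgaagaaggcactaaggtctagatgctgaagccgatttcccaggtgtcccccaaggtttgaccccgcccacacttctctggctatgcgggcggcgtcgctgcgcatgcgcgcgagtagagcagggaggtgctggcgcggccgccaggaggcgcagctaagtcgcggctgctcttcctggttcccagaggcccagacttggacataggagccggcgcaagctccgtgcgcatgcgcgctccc
NOP10: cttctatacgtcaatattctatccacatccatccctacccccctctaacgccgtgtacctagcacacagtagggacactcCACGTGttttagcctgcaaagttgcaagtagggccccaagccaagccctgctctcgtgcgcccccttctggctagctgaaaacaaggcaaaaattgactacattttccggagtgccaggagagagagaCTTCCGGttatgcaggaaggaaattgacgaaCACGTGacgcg
UTP20: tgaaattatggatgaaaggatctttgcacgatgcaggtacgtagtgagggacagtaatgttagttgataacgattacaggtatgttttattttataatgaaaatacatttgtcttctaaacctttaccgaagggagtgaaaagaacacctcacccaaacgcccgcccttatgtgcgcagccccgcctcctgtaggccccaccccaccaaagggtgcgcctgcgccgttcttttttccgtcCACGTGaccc
NAT10: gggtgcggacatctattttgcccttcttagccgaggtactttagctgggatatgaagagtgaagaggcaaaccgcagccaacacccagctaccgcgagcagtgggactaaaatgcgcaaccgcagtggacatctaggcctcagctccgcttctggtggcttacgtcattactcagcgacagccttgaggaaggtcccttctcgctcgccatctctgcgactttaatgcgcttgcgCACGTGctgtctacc

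The NOB1 window had neither motif, and NOB1 had the largest fall. UTP20 has an E-box that begins 10 bases before the start, and its log2 fold change was -0.038. NAT10 and NOP10 have E-boxes that begin 15 and 11 bases before the start, and NOP10 has a further one 170 bases before it and an ETS core 42 bases before it. Their log2 fold changes were -0.36 and -0.19. The windows shown are examples. RRP9, UTP4 and DDX21, not shown, have E-boxes that begin 5, 16 and 31 bases before the start. Their log2 fold changes were -0.47, -0.37 and -0.50. A link between motif and change was not tested.

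The 5 Pol I genes encode polymerase subunits and factors that place the polymerase on ribosomal DNA. Of these, 4 had fitted values below 0, against 50.2% of all genes. In edgeR's test 0 passed the adjusted threshold, against 1.15% of all genes called lower. At an unadjusted p under 0.05, 2 were lower, against 7.26% of all genes. POLR1B, a core subunit of the active site (chromosome 2 of GRCh37, 113299492 to 113337395), was at 62.3 and 102 normalized CPM in empty vector replicates 1 and 2 and at 46.2 and 66.0 in RUNX1::ERG replicates 1 and 2. The groups overlapped, since RUNX1::ERG replicate 2 was above empty vector replicate 1. Its log2 fold change was -0.55 (SE 0.25, edgeR adjusted p = 0.27). POLR1C, a subunit shared with RNA polymerase III, was at 73.6 and 95.2 against 64.3 and 64.9 normalized CPM, the groups apart, with a log2 fold change of -0.39 (SE 0.17). POLR1A, the largest subunit, was at 129 and 173 against 116 and 162 normalized CPM, a log2 fold change of -0.12 (SE 0.20), and the difference between replicates exceeded that between groups. UBTF binds the ribosomal DNA promoter and keeps active repeats open (chromosome 17, 42282401 to 42298994). It was at 162 and 239.9 normalized CPM in the empty vector libraries and at 221 and 236 with RUNX1::ERG, and was the only one of the 52 genes with a fitted value above 0, at 0.18 (SE 0.19). RRN3, which recruits Pol I to the promoter, was at -0.094 (SE 0.19). The low value of UBTF was that of empty vector replicate 1, and without that library its log2 fold change was -0.075.

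All 4 nucleolar phosphoprotein genes had groups that did not overlap, lower with RUNX1::ERG, against 22.1% of all genes. Their median log2 fold change was -0.48. NPM1, nucleophosmin, an abundant nucleolar chaperone that is often mutated in acute myeloid leukemia (chromosome 5, 170814120 to 170838814), was at 1624 and 2153 normalized CPM in the empty vector libraries and at 1221 and 1549 with RUNX1::ERG. Empty vector replicate 1 was little above RUNX1::ERG replicate 2, so the gap between the groups was narrower than that within them. NCL, nucleolin, was at 934 and 1279 against 784 and 879 normalized CPM. NOLC1, which binds snoRNPs, was at 295 and 433 against 228 and 275. TCOF1, the treacle protein that works with UBTF on ribosomal DNA, was at 286 and 342 against 218 and 223. The means of TCOF1 were 314 ± 39.3 and 220.4 ± 3.55 (SD, n = 2), and its log2 fold change of -0.51 (SE 0.15) had an edgeR adjusted p of 0.094. The other 3 were at -0.41 to -0.53 with edgeR adjusted p-values from 0.17 to 0.22. None of the 4 passed, against 1.15% of all genes called lower. At an unadjusted p under 0.05 in the same test all 4 were lower, against 7.26% of all genes. Without empty vector replicate 2 the log2 fold changes of NOLC1, NCL, NPM1 and TCOF1 were -0.23, -0.17, -0.23 and -0.38.

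The snoRNP genes divided by the agreement of their replicates. FBL, fibrillarin, the methyltransferase of the box C/D snoRNP (chromosome 19, 40325098 to 40337019), was at 413 and 412 normalized CPM in the empty vector libraries and at 310.3 and 304 with RUNX1::ERG. The replicates of each group nearly coincided and the groups were apart. The log2 fold change was -0.42 (SE 0.14, edgeR adjusted p = 0.13), and it stayed between -0.44 and -0.42 with each library left out. The other core proteins NOP56 and NOP58, and RRP9, which joins the snoRNP of the small subunit processome, had log2 fold changes of -0.39, -0.33 and -0.47. NOP56 was at 187 and 285 against 174 and 186 normalized CPM, so that its 3 lower libraries were alike. The groups did not overlap for any of the 4 box C/D genes, lower with RUNX1::ERG, against 22.1% of all genes. Without empty vector replicate 2, NOP56, NOP58 and RRP9 were at -0.054, -0.15 and -0.15.

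The 4 box H/ACA genes also had groups that did not overlap, lower with RUNX1::ERG, against 22.1% of all genes. Their products convert uridine to pseudouridine in rRNA and also belong to telomerase. GAR1 (chromosome 4, 110736666 to 110745896) was at 118 and 140.2 normalized CPM in the empty vector libraries and at 92.0 and 90.9 with RUNX1::ERG. This was the largest difference among them, with a log2 fold change of -0.50 (SE 0.16, edgeR adjusted p = 0.11). NHP2 was at 169 and 179.9 against 144 and 134, a log2 fold change of -0.33 (SE 0.15). DKC1, the pseudouridine synthase, and NOP10 were at -0.20 (SE 0.15) and -0.19 (SE 0.16). The last pair differed by little more than their SE. Without empty vector replicate 2, GAR1, NHP2, DKC1 and NOP10 were at -0.37, -0.28, -0.096 and -0.073.

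The small subunit processome and its late factors gave 20 genes, of which 20 had fitted values below 0. Of these, 9 had groups that did not overlap, against 22.1% of all genes, and 1 was called, against 1.15% called lower. NOB1, the nuclease that makes the final cut of the small subunit rRNA (chromosome 16, 69775774 to 69788829), fell from 127 and 126 normalized CPM with the empty vector to 78.5 and 85.9 with RUNX1::ERG. The means were 126.5 ± 0.341 and 82.2 ± 5.25 (SD, n = 2), 35.0% lower, and the gap was wider than the spread of either group. The log2 fold change was -0.62 (SE 0.15, edgeR adjusted p = 0.046). It ran from -0.70 to -0.56 with each library left out, and the adjusted p then ran from 0.061 to 0.26, so the call was lost in all 4 of these fits, and also with library totals as the scaling (0.054).

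The genes of the early scaffold, which binds the precursor first, had fitted values below 0 that did not pass the test. UTP4, WDR43, WDR75 and UTP15 were at log2 fold changes of -0.37, -0.38, -0.27 and -0.26, and HEATR1, the most abundant transcript of the 20 before correction for length, was at -0.16 (SE 0.19). HEATR1 was at 189.6 and 249 against 170.2 and 222 normalized CPM, with the groups interleaved. WDR3, of the next scaffold complex, was at 93.7 and 156 against 73.9 and 106 normalized CPM, a log2 fold change of -0.47 (SE 0.25), and its partner UTP18 was at -0.23. The WDR3 groups overlapped, with empty vector replicate 2 far above the rest. IMP3, IMP4 and MPHOSPH10, which work as a unit on the pairing of a snoRNA with the precursor, were at -0.40, -0.32 and -0.29. IMP3 was at 117 normalized CPM in empty vector replicate 2 and between 72.1 and 73.9 in the other 3 libraries. Of the enzymes, EMG1, an rRNA methyltransferase, was at -0.40 (SE 0.17) and NAT10, the rRNA acetyltransferase, at -0.36 (SE 0.16), both with groups apart. NAT10 was at 180.3 and 215 against 142 and 166 normalized CPM. The helicases DDX10 and DDX52 were at -0.25 and -0.065.

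NOP14 and RRP12, of which the latter aids export of the small subunit, were at -0.37 and -0.32, and the late factors LTV1 and BYSL were at -0.28 and -0.13. UTP20, a very large scaffold protein, showed the least difference of the 20 genes and the largest SE of all 52. It was at 56.2 and 100.3 normalized CPM in the empty vector libraries and at 59.7 and 92.7 with RUNX1::ERG, a log2 fold change of -0.038 (SE 0.27). Its libraries lay together by replicate number and not by group.

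All 15 genes of large subunit assembly had fitted values below 0, and 8 had groups that did not overlap, against 22.1% of all genes. In edgeR's test 0 passed the adjusted threshold, against 1.15% of all genes called lower. At an unadjusted p under 0.05 were 3, against 7.26% of all genes lower. NOC2L, a nucleolar protein that also binds histones and p53 (chromosome 1, 879583 to 894689), was at 499.6 and 594 normalized CPM in the empty vector libraries and at 389 and 379 with RUNX1::ERG. Its log2 fold change was -0.51 (SE 0.15, edgeR adjusted p = 0.082), and only NOB1 of the 52 had a lower p. DDX21, a helicase that binds both snoRNAs and ribosomal DNA, was at 725 and 866 against 513 and 612, a log2 fold change of -0.50 (SE 0.15, edgeR adjusted p = 0.10). In both genes the groups were apart.

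The complex of PES1, BOP1 and WDR12, which binds early large subunit precursors, was not uniform over libraries. PES1 was at 204 and 290.0 against 194 and 182 normalized CPM. BOP1 was at 68.1 and 46.6 against 55.3 and 39.6, and was the single one of the 52 genes with its highest value in empty vector replicate 1 by a wide margin. WDR12 was at 101 and 112 against 80.5 and 93.7. Their log2 fold changes were -0.39, -0.27 and -0.28, and that of BOP1 was 0.020 without empty vector replicate 1. RRP1B, NOP2, an rRNA methyltransferase, RRS1 and NOP16 were at -0.48, -0.45, -0.39 and -0.35. NOP2 and NOP16 rested on empty vector replicate 2, which was at 130.3 and 107 normalized CPM against 76.6 to 80.0 and 60.4 to 68.6 in the other 3 libraries. DDX18, a helicase, was at 188 and 234 against 150.2 and 178 normalized CPM, with the groups apart. DDX18, MRTO4, GNL3, DDX56 and GNL3L were between -0.36 and -0.20. GNL3, nucleostemin, and its relative GNL3L are nucleolar GTPases known from stem and cancer cells.

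**Figure D2:**
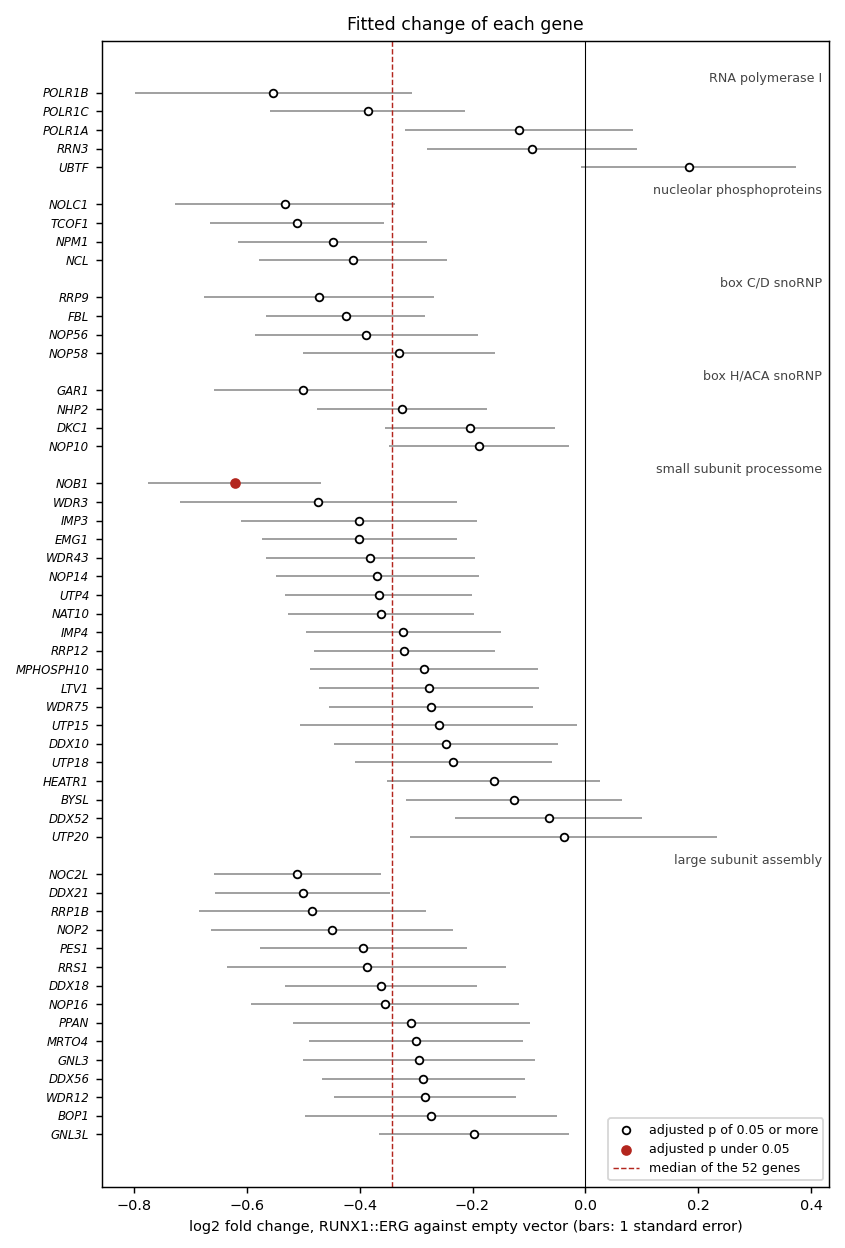
Log2 fold change of each of the 52 genes, RUNX1::ERG against empty vector, with bars of 1 SE, grouped by role and ordered within it. NOB1, filled in red, is the only gene under an adjusted p of 0.05, UBTF is the only one right of 0, and the dashed line marks the median of -0.34.

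Levels between genes were compared per length, as normalized CPM per kb of the canonical GENCODE v44 transcript on GRCh37, averaged over the 4 libraries. BOP1 had no such length and was left out. NPM1 was highest at 1240, followed by FBL at 319.8, NCL at 247 and NHP2 at 201. The order of FBL and NCL held in all 4 libraries, while NOP10 at 173 and NOC2L at 169 did not differ beyond the spread over libraries. The Pol I subunits POLR1A and POLR1B were at 11.6 and 9.19, and POLR1C at 58.4. UTP20, UTP15 and PPAN were lowest at 8.55, 7.97 and 5.13. PPAN, a large subunit factor, was at 12.9 and 13.3 against 11.2 and 9.9 normalized CPM, a log2 fold change of -0.31 (SE 0.21).

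**Figure D3:**
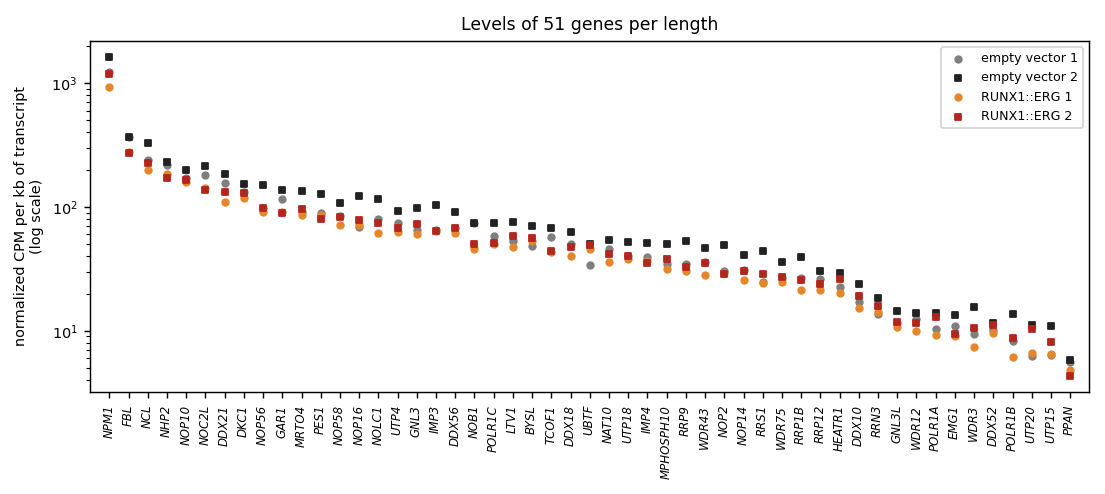
Normalized CPM per kb of transcript (log axis) of 51 genes in each of the 4 libraries, in order of their mean. NPM1 is highest, with a mean of 1240, and PPAN is lowest, with a mean of 5.13.

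Some of these counts may share reads with other loci, which was not tested. By GENCODE on GRCh37, PPAN has exons in common with P2RY11 and with the PPAN-P2RY11 readthrough gene on the same strand, and its counts are uncertain for that reason. In all, 5 of the 52 genes share exons with another protein-coding gene model on the same strand and 12 with one on the other strand, and the strand setting of the counting is not given in the sources used here. RefSeq names pseudogenes after 16 of them, 50 after NPM1 alone. The 52 genes lie on 19 chromosomes. Within 8 of them lie 20 annotated snoRNA genes on the same strand, for example SNORD20, SNORD82 and SNORA75 in NCL. These 8 host genes had a median log2 fold change of -0.36, and the other 44 one of -0.34.

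The rest of the pathway gave values close to those of the 52 genes. Of 88 other ribosome biogenesis genes 87 were tested, of which 85 had a fitted value below 0, against 50.2% of all genes. Their median log2 fold change was -0.31. Of the 87, 1 was called lower, against 1.15% of all genes. This list too rested on the empty vector libraries, with a median of -0.12 and 59 of 87 lower without empty vector replicate 2, and a median of -0.47 without empty vector replicate 1. RIOK1, a kinase of late small subunit maturation, was the 1 called, and fell from 70.3 and 81.4 normalized CPM to 41.6 and 49.9, a log2 fold change of -0.73 (edgeR adjusted p = 0.04, rising to 0.071 without empty vector replicate 2 and to 0.25 without RUNX1::ERG replicate 1). All 10 other Pol I genes, 34 of 35 small subunit and 41 of 42 large subunit genes were lower, with medians of -0.46, -0.30 and -0.29. POLR1H had 4 to 11 counts per library, and WDR46 did not pass the filter. The groups did not overlap in that direction for 44 of the 87, against 22.1% of all genes.

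The genes of the ribosome itself differed from the 52 genes in their library pattern. For 85 tested cytosolic ribosomal protein genes the library medians were 0.15 and 0.17 with the empty vector and -0.13 and -0.18 with RUNX1::ERG, so the replicates of a group were alike, although the median log2 fold change of -0.30 was close to that of the 52 genes. The groups did not overlap, lower with RUNX1::ERG, for 72 of these 85, against 22.1% of all genes. Of the 85, 2 were called lower, against 1.15% of all genes. Without empty vector replicate 2 the ribosomal protein median was still -0.30, and that of the 52 genes was -0.12. For 76 tested mitochondrial ribosomal protein genes, which serve another ribosome, the median was -0.18. Groups were apart, lower with RUNX1::ERG, for 42 of the 76, against 22.1% of all genes. Without empty vector replicate 2 the mitochondrial median was -0.091. The difference between the lists was not tested.

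**Figure D4:**
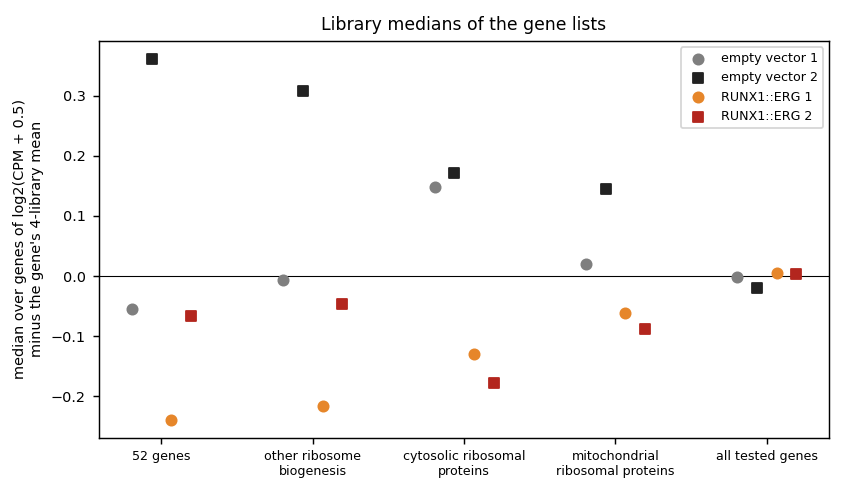
For 5 gene lists, the median over genes of log2(CPM + 0.5) minus the gene's mean over the 4 libraries, 1 point per library. For the 52 genes empty vector replicate 2 stands at 0.36 and empty vector replicate 1 at -0.055, while for cytosolic ribosomal proteins both empty vector libraries stand near each other, at 0.15 and 0.17.

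**Figure D5:**
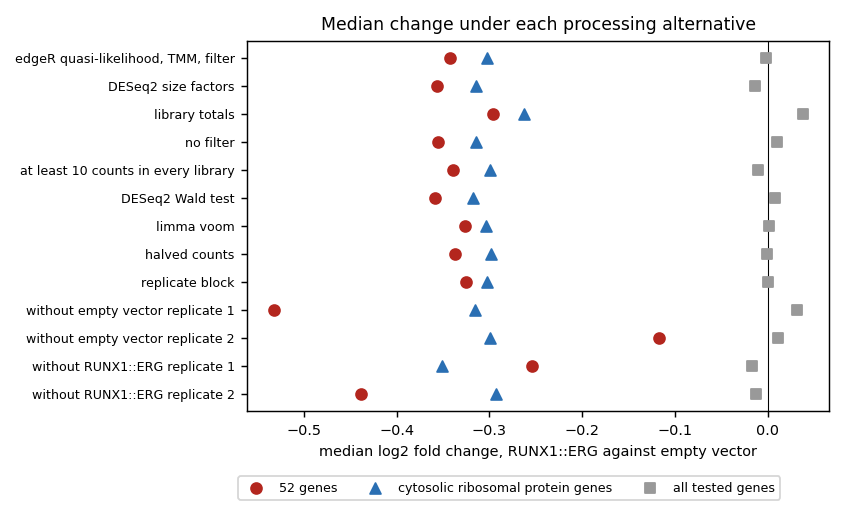
Median log2 fold change under the main fit (top) and each of the processing alternatives, for the 52 genes (red circles), cytosolic ribosomal protein genes (blue triangles) and all tested genes (grey squares). The red circles stay left of 0 and spread most when an empty vector library is left out, at -0.53 and -0.12.

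For single genes, most differences were not over 2 SE, where the SE uses a spread that edgeR shares between genes. The size of the log2 fold change was under 1 SE for 7 of the 52 genes and over 2 SE for 23. The median SE was 0.18, and the same shares over all genes were not computed. An exact two-sided permutation test of 2 against 2 libraries cannot give a p below 0.333, so the p-values of single genes borrow a spread that edgeR took from all genes.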

How the data were processed

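WTS of poly(A)-enriched RNA was analysed from 2 empty vector and 2 RUNX1::ERG libraries of K562 cells. For each library the authors deposited whole-number counts, 1 for each NCBI gene number, without normalization. The submitters' processing notes name HISAT2 2.2.1, featureCounts 2.0.1 and hg19. Whether reads or read pairs were counted is not given in the sources used here.

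RefSeq (GRCh38.p14) gave a symbol for 92.2% of the gene numbers. GENCODE v44 on GRCh37 gave positions, transcript lengths and exon overlaps. Counts were compared in R 4.3.3 with edgeR 4.0.16 (TMM scaling, its filter on low counts, the quasi-likelihood test) across all genes, with Benjamini-Hochberg adjustment over all genes tested and 0.05 as the threshold. The SE is the size of the log2 fold change divided by the square root of F. A count of 0 allows up to 3 counts, at most 0.0503 CPM, for counting error only.

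The 52 genes, the other lists and the rule for named genes (genes past the threshold, all Pol I genes, the largest rise, largest fall and highest mean CPM in each role, the called genes of the wider pathway, and ERG, RUNX1 and MYC) were chosen with earlier results of these data known. The remaining members are given because they belong to the 52. Alternatives were other scalings and filters, halved counts, DESeq2 1.42.0, limma 3.58.1 voom, a replicate block and leaving out each library. The procedure was tested on simulated data. One lymphocyte marker of the lists is not reported here.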

Additional observations from a re-analysis of the deposited data

How the results depend on the processing

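The median log2 fold change of the 52 genes was below 0 in the main fit and under all alternatives, from -0.53 to -0.12 with each library left out. The number of genes called was 737 in the main fit, 618 with library totals, 1500 without a filter, 1194 with the DESeq2 Wald test, 1733 with the replicate block, and from 286 to 1336 with each library left out. The number of the 52 genes called was 1 in the main fit, 0 with library totals (0.669% of all genes called lower), 7 without a filter (2.65%), 12 with the replicate block (4.23%), and from 0 to 16 with each library left out. Of the other ribosome biogenesis genes, 1 was called in the main fit, 3 with DESeq2 size factors, 5 without a filter, 5 with the DESeq2 Wald test, 2 with halved counts, 11 with the replicate block, and from 0 to 9 with each library left out. Of all genes, 1.15% were called lower in the main fit, 1.38% with DESeq2 size factors and 2.65% without a filter. The share was 1.96% with the DESeq2 Wald test, 1.26% with halved counts and 4.23% with the replicate block. The cause of the changes between settings was not tested.

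The replicate block left the median of the 52 genes at -0.32. Deviations of same-numbered libraries from their group means correlated over genes with r = 0.27 (all tested genes) and r = 0.59 (the 52 genes), but no source says that a number marks a shared batch, and 2 pairs do not decide it, so the libraries were not treated as paired.

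UTP20 changed sign with library totals (0.0083). With each library left out, 14 of the 52 genes changed sign in at least 1 fit: UBTF (-0.075 to 0.49), BOP1 (-0.53 to 0.020), POLR1A (-0.39 to 0.11), RRN3 (-0.30 to 0.14), UTP15 (-0.60 to 0.18), HEATR1 (-0.38 to 0.048), UTP20 (-0.41 to 0.44), MPHOSPH10 (-0.54 to 0.013), DDX10 (-0.47 to 0.0050), DDX52 (-0.19 to 0.041), BYSL (-0.38 to 0.17), NOP16 (-0.71 to 0.12), RRS1 (-0.75 to 0.10) and GNL3 (-0.57 to 0.034). With 2 libraries per group, small differences in single genes are often below what the test can call.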
